A study of Homo sapiens with 27 samples.

Results

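Control 22Rv1 and control LNCaP cells were compared in 6 poly(A)-ClickSeq (PAC-seq) libraries, 3 of each line, out of the 27 libraries of the series. The 6 were chosen by their labels alone (22Rv1 CTRL sh and LNCaP CTRL sh), and no measured value entered the choice. LNCaP is a hormone-sensitive human prostate cancer line derived from a lymph node metastasis, and 22Rv1 is a hormone-insensitive line derived from a relapsed xenograft, so the lines come from different tumors and every difference here is a difference between genotypes as well. All 6 libraries share the same handling. The cells were infected with a lentivirus carrying a non-silencing control shRNA (CTRL sh), selected in 2 rounds with puromycin at 2 μg/mL, expanded, plated at 500000 per well and cultured for 72 h in RPMI 1640 containing 10% FBS. No library came from uninfected cells, and no androgen was added or withdrawn. The labels number the libraries BR1 to BR3, and the study's methods call them biological replicates. Neither states whether each library had its own infection, so p-values measure the spread between these libraries, which may be technical.

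PAC-seq sequences the end of a transcript where the poly(A) tail is joined, and a read is assigned to the region that holds its 3′-most base. For each gene, reads were counted in the 3′ UTR extended by 300 bases, in the introns, in the coding exons (CDS) and in the 10 kb beyond the end of the gene. Reads in the 3′ UTR report on the usual full-length mRNA. Reads in an intron report on transcripts that end early, which can encode proteins lacking a carboxy-terminal part, and reads in the 10 kb region report on transcripts that run past the annotated end. Androgen signaling drives the secretory program of the prostate lineage, including proteases such as prostate-specific antigen, and it is shaped by pioneer factors that open chromatin and by enzymes that make or clear androgens. Because the libraries are bulk RNA, fewer cells expressing a gene and less RNA per cell cannot be told apart.

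Libraries held 3452413 to 8470629 reads over the 4 tables in 22Rv1 and 7831124 to 8942458 in LNCaP. Of these, 1725670 to 4876417 and 3972800 to 5044910 lay in 3′ UTRs. The shallowest library, 22Rv1 replicate 1, differed more from each of the other 22Rv1 libraries (chi-square per degree of freedom 13.13 with either) than any other pair of one line (4.735 to 8.893). LNCaP replicate 1 also stood apart from the other LNCaP libraries in one respect. Of 90 genes at least 16-fold higher in 22Rv1 and at 50 CPM or more there, all 90 had reads in LNCaP replicate 1, at a median of 2.05% of the 22Rv1 mean, against 59 genes at 0.587% in replicate 2 and 64 at 0.758% in replicate 3. Conversely, 47 genes were at least 16-fold lower in 22Rv1 and at 50 CPM or more in LNCaP. Of them, 35, 40 and 42 had reads in 22Rv1 replicates 1, 2 and 3. Their medians there were 2.02, 1.63 and 1.12% of the LNCaP mean. The source of the reads in either set was not tested. Some markers of cell type were read in both lines, and further luminal and mesenchymal markers are given below. KRT8 and KRT18, the keratins of luminal cells, were read in every library (219.6, 272 and 257 CPM of KRT8 in 22Rv1 and 301, 325 and 299 in LNCaP), the 7 basal markers summed to 5.27 to 15.2 CPM in 22Rv1 and 4.57 to 8.91 in LNCaP (KRT5 and KRT6A with 0 reads in all 6, KRT14 with 6, 9 and 4 in LNCaP alone), and the 7 immune and endothelial markers in the table summed to at most 7.03 CPM in any library. CPM are read counts scaled by edgeR to the depth of the same table.

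To determine how far the full-length transcript pools of the lines differ, 3′ UTR counts were compared. Of 11478 genes tested, 2721 (23.7%) were higher in 22Rv1 and 2550 (22.2%) were lower at an adjusted p under 0.05. At least a 2-fold difference was fitted for 1736 of the higher and 1549 of the lower genes, and at least a 16-fold difference for 470 and 200. The median log2 fold change of all tested genes was 0.03, and calls were split almost evenly, with 51.6% of them higher. Scaling to library totals summed over the 4 tables, without the TMM correction, moved the median to 0.20 and the split to 62.1% higher (3044 higher and 1854 lower), so small differences of this size on the log2 scale depend on the scaling. Without 22Rv1 replicate 1 the calls were 3264 and 3118, and without LNCaP replicate 1 they were 2265 and 2142. Leaving out either library moved the counts of each gene list below by at most 2 genes in either direction. Because so many genes were called, the counts for the gene lists are read against 23.7% and 22.2%. Genes were tested if their mean over the 6 libraries was above 2 CPM. A gene near 0 reads in 1 line passes this filter only through the other line, which fixes its direction. For lists with such genes, counts over members above 2 CPM in every library are given as well.

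Androgen-regulated genes moved in both directions. Of 22 tested members of a list of 23, 9 were lower in 22Rv1, 5 were higher and 8 did not pass, with a median log2 fold change of -0.39 beside 0.03 for all genes. The higher count was near the 23.7% of all genes, and 22.2% of all genes were lower. Above 2 CPM in every library, 8 members were lower and 4 higher. The largest difference at a high level was in KLK3, which encodes prostate-specific antigen, a secreted protease of the prostate. The KLK3 3′ UTR had 31.6, 29.4 and 43.2 CPM in the 22Rv1 libraries and 1532, 1508 and 1650.3 CPM in the LNCaP libraries (log2 fold change -5.47, SE 0.19, adjusted p = 4.97e-10), a 44.4-fold lower level with no overlap. The neighbouring protease gene KLK2 had 90.2, 79.1 and 80.5 CPM against 289, 328 and 329 CPM (log2 fold change -1.93, SE 0.16, adjusted p = 3.03e-07). KLK4, in the same cluster on chromosome 19, had 415, 338 and 255 CPM against 294, 272 and 367 CPM, and the lines overlapped (adjusted p = 0.67).

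The proximal promoters of KLK3 and KLK2 are shown because their fold changes differ although the letters are alike. Each window is 30 bases of the plus strand of GRCh38.p14 from RefSeq, with the 6 positions of the steroid receptor half-site AGAACA of KLK3 in capitals.
KLK3 (chr19:50854733-50854762): tctagtaattgcAGAACAgcaagtgctagc
KLK2 (chr19:50873251-50873280): tctagtatgtgtGGAACAgcaagtgctggc
The half-site of KLK3 begins 170 bases before the annotated start, and the most similar KLK2 window, aligned without gaps, has its capitals 176 bases before its own start. The windows share 25 of 30 bases and 5 of the 6 capitals. AGAACA on either strand was present between 250 bases before and 50 bases after the start in 3 of the 16 listed genes found in the RefSeq promoters (KLK3, FKBP5 and PMEPA1, 18.8%), against 14.9% of all 27305 promoters. The palindrome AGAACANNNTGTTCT was in none of the 16, and in 1 promoter of all. KLK3 was lower in 22Rv1, while FKBP5 and PMEPA1 were higher.

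TRPM8, ABCC4, TMPRSS2, NDRG1 and STEAP2 were lower in 22Rv1 as well. TRPM8, a cold-sensing cation channel of the prostate epithelium, had 0, 1 and 0 reads in 22Rv1 and 36, 37 and 39 in LNCaP, at least 8.3-fold lower against a floor of 3 reads per library (adjusted p = 1.05e-05). ABCC4, an efflux pump for cyclic nucleotides and prostaglandins, had 2.34, 5.0 and 2.32 CPM against 74.5, 85.2 and 71.1 CPM (log2 fold change -4.55, SE 0.28, adjusted p = 2.46e-08). TMPRSS2, a membrane protease whose promoter is fused to ETS genes in many prostate tumors, had 4.68, 15.3 and 11.4 CPM against 92, 137 and 120.2 CPM (log2 fold change -3.37, SE 0.29, adjusted p = 4.39e-07). For all 3 genes the highest 22Rv1 library lay below the lowest LNCaP library. The stress response gene NDRG1 and the metalloreductase STEAP2 were lower by smaller amounts (log2 fold changes of -2.16 and -1.42). CENPN, at -0.66, was lower in 4 of the 6 fits without 1 library.

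The 5 higher members were HPGD, ELL2, ZBTB10, PMEPA1 and FKBP5. HPGD, which inactivates prostaglandins, had 73.8, 112 and 109.6 CPM in 22Rv1 and 8.61, 2.23 and 1.64 CPM in LNCaP (log2 fold change 4.64, SE 0.40, adjusted p = 5.66e-07), and its log2 fold change was 5.65 without LNCaP replicate 1. The elongation factor gene ELL2 had 184, 169 and 185 CPM against 15.3, 12.5 and 13.6 CPM (log2 fold change 3.70, SE 0.18, adjusted p = 4.00e-09), and the zinc finger gene ZBTB10 had 326, 387 and 367 against 35.5, 35.6 and 41.1 CPM (log2 fold change 3.27, SE 0.17, adjusted p = 5.29e-09). None of these overlapped. FKBP5, a co-chaperone often used as a readout of steroid signaling, was 5.55-fold higher in 22Rv1 (223, 318 and 318 against 55.7, 53 and 46.5 CPM, adjusted p = 1.45e-07), and PMEPA1, an inhibitor of TGF-β signaling, 6.47-fold higher. FKBP5 is known to respond to glucocorticoids as well. Among the members that did not pass was the transporter gene SLC45A3 (114, 99.4 and 167 against 116, 166 and 133 CPM, adjusted p = 0.661).

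**Figure D1:**
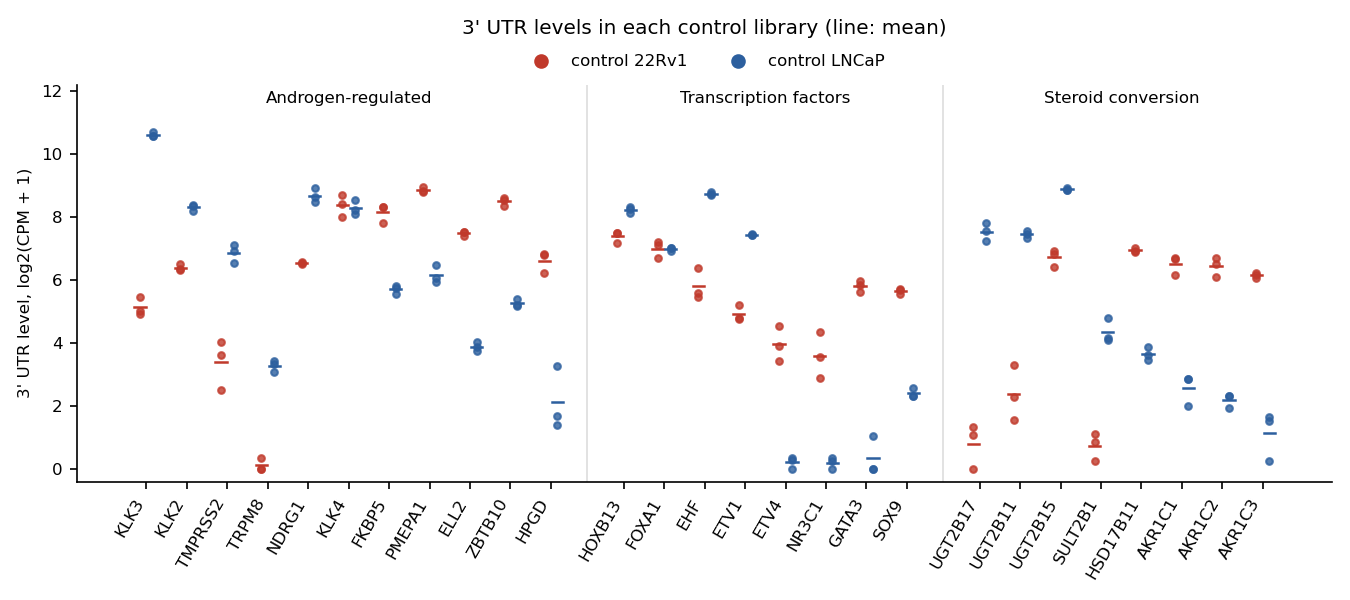
Levels of 27 androgen-regulated, transcription factor and steroid conversion genes in the 3′ UTR table, as log2(CPM + 1), with 1 point per control library (red, 22Rv1; blue, LNCaP; n = 3 each) and a line at the mean. KLK3, TMPRSS2, UGT2B17 and UGT2B11 lie far lower in 22Rv1 and the AKR1C genes, GATA3 and HPGD far higher, while KLK4 and FOXA1 overlap.

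Transcription factors of the prostate lineage split in both directions. Of 18 tested members of a list of 21, 7 were higher in 22Rv1, 6 were lower and 5 did not pass (median 0.00). Among all genes, 23.7% were higher and 22.2% lower. GATA3, CREB3L1, ETV4, ETV5 and NR3C1 passed the filter on mean CPM only through 22Rv1, which set their direction. Above 2 CPM in every library, 2 members were higher and 6 lower (median -0.35). The pioneer factor FOXA1 had 102, 146 and 136 CPM in 22Rv1 and 128, 128 and 121 in LNCaP, an overlap (adjusted p = 0.874), and HOXB13, which marks the prostate lineage, was lower in 22Rv1 (142, 178 and 181 against 306, 315 and 277 CPM, log2 fold change -0.84, SE 0.16, adjusted p = 5.91e-04). GATA3, a factor of luminal differentiation, had 48, 61.3 and 56.2 CPM in 22Rv1, while LNCaP had 4, 0 and 0 reads (log2 fold change 7.34, SE 0.49, adjusted p = 4.81e-08). Without LNCaP replicate 1 GATA3 was at least 84.3-fold higher, and without replicate 2 its log2 fold change was 6.68. SOX9 was 11.2-fold higher and ONECUT2 6.13-fold higher in 22Rv1, with no overlap in either.

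ETS factors, whose genes are recurrently activated in prostate cancer, differed gene by gene. ETV1 had 26.3, 36.1 and 26.6 CPM in 22Rv1 and 173, 173 and 171 CPM in LNCaP (log2 fold change -2.53, SE 0.18, adjusted p = 1.07e-07), and the epithelial factor EHF had 82.6, 47.5 and 43 against 446, 412 and 418 CPM (log2 fold change -2.92, SE 0.22, adjusted p = 1.86e-07). ETV4 went the opposite way, with 38, 51 and 51 reads against 1, 0 and 1, at least 21.9-fold higher in 22Rv1 (adjusted p = 2.96e-06). ETV5 was at least 16-fold higher, and ERG had 0 reads in all 6 libraries. The glucocorticoid receptor gene NR3C1 had 33, 23 and 56 reads in 22Rv1 and 1, 1 and 0 in LNCaP, at least 17.3-fold higher in 22Rv1 (adjusted p = 1.43e-05).

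Most UGT2B genes, whose enzymes clear androgens, were lower in 22Rv1, and the aldo-keto reductase genes were higher. Of 17 tested members of a list of 28, 8 were lower, 5 were higher and 4 did not pass (median -0.43). Among all genes, 22.2% were lower and 23.7% higher. Above 2 CPM in every library, 4 members were lower and 3 higher (median -0.35). UGT2B17, which attaches glucuronic acid to dihydrotestosterone for excretion, had 0, 1.11 and 1.54 CPM in 22Rv1 and 150.1, 223 and 187 CPM in LNCaP (log2 fold change -7.34, SE 0.35, adjusted p = 2.86e-09). It was lower in every table, with log2 fold changes of -3.98 in introns and -4.94 in CDS, and at least 41.8-fold lower in the 10 kb region. UGT2B15, which has the same substrate, kept more of its level (83.7, 111 and 121 against 463, 484 and 457 CPM, log2 fold change -2.14, SE 0.17, adjusted p = 2.45e-07). UGT2B11 was lower (8.78, 3.89 and 1.93 against 188, 159 and 173 CPM, log2 fold change -5.44, SE 0.33, adjusted p = 2.30e-08), as were UGT2B28 (-3.49), UGT2B10 (-2.08) and UGT2B7 (-3.32), whereas UGT2B4, best known from liver, was higher (2.45). UGT2B7 was at least 10.5-fold lower without 22Rv1 replicate 1, and its log2 fold change was -2.41 without 22Rv1 replicate 3. The hydroxysteroid sulfotransferase gene SULT2B1 was at least 18.9-fold lower (2, 3 and 1 reads against 100, 80 and 72, adjusted p = 2.08e-06), and the steroid sulfatase gene STS had a log2 fold change of -1.52.

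AKR1C3, which converts weak androgens to testosterone, had 69.7, 73.5 and 66.2 CPM in 22Rv1 and 2.15, 0.202 and 1.87 CPM in LNCaP (log2 fold change 5.68, SE 0.37, adjusted p = 3.58e-08), or a log2 fold change of 5.09 without LNCaP replicate 2. AKR1C2 and AKR1C1, which reduce dihydrotestosterone and progesterone, had log2 fold changes of 4.56 and 4.12, and the dehydrogenase gene HSD17B11 one of 3.38, all without overlap. The 5α-reductase genes SRD5A1 and SRD5A3 did not pass (adjusted p = 0.289 and 0.975). HSD3B1, CYP17A1 and CYP19A1, of androgen and estrogen synthesis, had 0 reads in all 6 libraries. The UGT2B genes on chromosome 4 and the AKR1C genes on chromosome 10 are near copies of each other, which leaves the assignment of reads within each family uncertain.

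**Figure D2:**
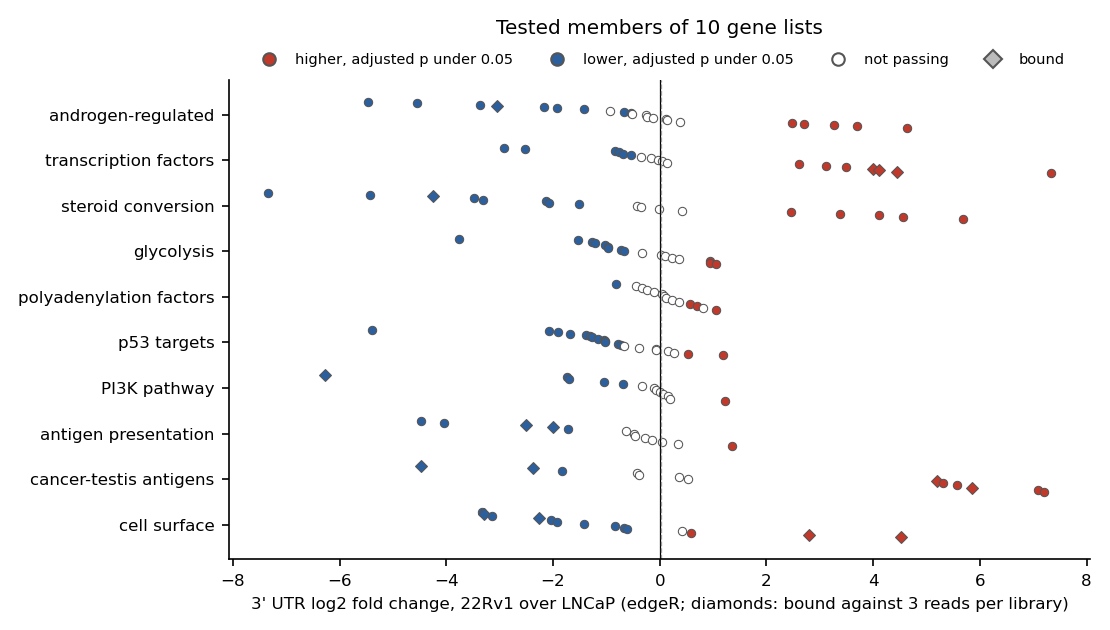
The log2 fold changes of 22Rv1 over LNCaP in the 3′ UTR table for the tested members of 10 gene lists, with 1 symbol per gene (red, higher at an adjusted p under 0.05; blue, lower; white, not passing; diamonds, genes with 3 reads or fewer in each library of one line, drawn at their bound). Glycolysis, p53 target and cell surface genes lie mostly to the left, and the other lists on both sides of the median of all genes (0.03, dashed).

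Glycolytic genes, the pathway in which the study's interest in CPSF1 lies, were mostly lower in 22Rv1. All 17 listed genes were tested, and 9 were lower, 3 were higher and 5 did not pass, with a median log2 fold change of -0.67. Among all genes, 22.2% were lower and 23.7% higher. PFKP, the platelet isoform of phosphofructokinase, had 5.86, 2.5 and 3.86 CPM against 46.8, 58.7 and 48.9 CPM (log2 fold change -3.76, SE 0.28, adjusted p = 1.35e-07), while the muscle isoform PFKM overlapped (23.4, 60.5 and 42.3 against 33.6, 46.6 and 46.3, adjusted p = 0.938). PGK1, which makes the first ATP of the pathway, had 576, 669 and 643 CPM against 2026, 1690.2 and 1723 CPM (log2 fold change -1.53, SE 0.14, adjusted p = 1.03e-06). GPI had 299.8, 326 and 315 against 596, 655 and 600.4 CPM (log2 fold change -0.98, SE 0.14, adjusted p = 6.16e-05), and ALDOA had 244, 302 and 309 against 619, 712 and 653 CPM (log2 fold change -1.21, SE 0.15, adjusted p = 1.89e-05). In PFKP, PGK1, GPI and ALDOA the lowest LNCaP library exceeded the highest 22Rv1 library. ALDOC, ENO1, PKM, PGAM1 and LDHA were lower as well (-1.27, -0.97, -1.02, -0.72 and -0.67).

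The 3 higher genes code for isozymes, with log2 fold changes of 0.95 in LDHB, 0.95 in ENO2 and 1.05 in HK2. HK2 overlapped between the lines (16.4, 46.9 and 50.4 against 14, 18 and 25 CPM) and passed in only 2 of the 6 fits that left out a library. GAPDH and TPI1 did not pass (adjusted p = 0.784 and 0.0899). The study also follows the aldehyde dehydrogenase gene ALDH3A2, which had 509, 486 and 497 CPM in 22Rv1 and 71.3, 59.9 and 56.6 CPM in LNCaP (log2 fold change 2.99, SE 0.16, adjusted p = 8.23e-09). It was higher in the intron (15.8% of genes higher), CDS (14.8%) and 10 kb (7.34%) tables too, with log2 fold changes of 2.26, 2.63 and 1.52. Its CDS was at least 7.31-fold higher without LNCaP replicate 2.

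Most genes of the polyadenylation machinery did not pass. CPSF1, the subunit targeted in the knockdown arms of the series, had 183, 123 and 133 CPM in control 22Rv1 and 166, 132 and 126 CPM in control LNCaP, and the lines overlapped (log2 fold change 0.04, SE 0.19, adjusted p = 0.865). Of the 14 listed factors, all tested, 10 did not pass, 3 were higher and 1 was lower (median 0.09). The higher count was near the 23.7% of all genes, and 22.2% of all genes were lower. CPSF4, a zinc finger subunit of the same complex, had 114, 65.8 and 88.2 against 45.5, 44.1 and 38.3 CPM (log2 fold change 1.05, SE 0.21, adjusted p = 9.12e-04). FIP1L1 (0.69), of the same complex, and CPSF6 (0.56), of cleavage factor I, were higher, and CSTF1 of the cleavage stimulation factor was lower (-0.83). With summed library sizes 3 factors were higher and none lower. The SE of the log2 fold changes of the factors that did not pass was 0.19 to 0.36.

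Targets of the tumor suppressor p53 were largely lower in 22Rv1, with 13 of 21 lower, 2 higher and 6 not passing (median -1.02). Among all genes, 22.2% were lower and 23.7% higher. GDF15, a secreted stress cytokine, had 61.5, 29.1 and 39.9 CPM in 22Rv1 and 1718, 2047 and 1583 CPM in LNCaP (log2 fold change -5.40, SE 0.25, adjusted p = 2.69e-09). SESN1, an inhibitor of mTORC1, had 2.93, 3.61 and 7.14 against 20.4, 22.1 and 21 CPM (log2 fold change -2.08, SE 0.32, adjusted p = 1.07e-04), and PHLDA3, an inhibitor of AKT, 29.9, 26.1 and 20.3 against 93.1, 99.4 and 87.7 CPM (log2 fold change -1.91, SE 0.19, adjusted p = 2.67e-06). The cell cycle inhibitor CDKN1A was lower by less (-0.77, adjusted p = 0.00801). The 2 higher members, BBC3 and BAX, code for pro-apoptotic proteins, as does the death receptor gene TNFRSF10B, which was lower (-1.15). BBC3 had 88.4, 84.6 and 88.2 against 32.3, 41.7 and 41.1 CPM (log2 fold change 1.18, SE 0.18, adjusted p = 9.05e-05) and BAX a log2 fold change of 0.54, though BAX passed in only 2 of the 6 fits that left out a library. MDM2, the ubiquitin ligase that degrades p53, did not pass (adjusted p = 0.232).

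In the PI3K pathway, 5 of 13 tested genes were lower, 1 was higher and 7 did not pass. Among all genes, 22.2% were lower and 23.7% higher. Above 2 CPM in every library, 4 members were lower and 1 higher. The median of the 13 was -0.11, and 0.06 with summed library sizes. PIK3CD, a catalytic subunit best known from leukocytes, had 0, 0 and 1 reads in 22Rv1 and 301, 371 and 380 in LNCaP, at least 77.3-fold lower (adjusted p = 2.19e-09). Its introns were lower by less, with 10, 5 and 15 reads against 96, 132 and 114 (log2 fold change -3.07, SE 0.28, adjusted p = 2.05e-10), and its 10 kb region was at least 13.1-fold lower. The regulatory subunit genes PIK3R1 (-1.74), PIK3R3 (-1.70) and PIK3R2 (-1.04) were also lower, and the catalytic subunit PIK3CA was higher (18.2, 17.8 and 22.2 against 7.53, 7.08 and 10.5 CPM, log2 fold change 1.22, SE 0.27, adjusted p = 0.00199).

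Among mismatch repair genes, MSH6 did not pass (53.9, 69.7 and 62.5 against 47.1, 51 and 45.1 CPM, adjusted p = 0.0891). MSH3 was lower in 22Rv1 (-1.84, adjusted p = 9.94e-04), and the exonuclease gene EXO1 was higher (1.10, adjusted p = 0.00961). MLH3 was lower (-0.75, adjusted p = 0.0488) and passed in only 1 of the 6 fits that left out a library.

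Antigen presentation and interferon response genes were lower in 22Rv1 or did not pass, apart from ISG15. Of 24 listed genes 13 were tested, and 5 were lower in 22Rv1, 1 was higher and 7 did not pass. HLA-B had 1.17, 1.67 and 0.386 against 14.3, 18 and 17.1 CPM and HLA-C 7.61, 10.8 and 8.49 against 27.2, 35.8 and 27.1 CPM. HLA genes are polymorphic, and the fit of each line's alleles to the reference was not tested. B2M, the invariant partner of these chains, overlapped (154, 251 and 238 against 151, 195 and 165 CPM). The interferon-induced gene IFI6 was 22.2-fold lower, and ISG15, a ubiquitin-like modifier, was higher (977, 701 and 574 against 347, 209 and 325 CPM, log2 fold change 1.35, SE 0.22, adjusted p = 1.90e-04).

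Cancer-testis antigens, genes of the germline that tumors reactivate, differed in both directions. Of 13 tested of 22, 6 were higher in 22Rv1, 3 were lower and 4 did not pass. CTAG1B, which encodes NY-ESO-1, had 974, 558 and 763 CPM in 22Rv1 and 12.6, 1.21 and 2.57 CPM in LNCaP (log2 fold change 7.21, SE 0.52, adjusted p = 1.00e-07), and its close paralog CTAG2 had a log2 fold change of 7.09. LNCaP replicate 1 held most of the LNCaP reads of CTAG1B (47, 6 and 11), and without it the log2 fold changes were 8.66 and 8.60. SSX2 was at least 57.8-fold and SSX1 at least 36.7-fold higher, and MAGEA4 had 63.2, 103 and 85.7 against 1.88, 1.21 and 3.27 CPM. Among the listed genes, MAGEA10 (at least 22.2-fold lower in 22Rv1), PAGE1 (at least 5.16-fold) and PRAME (65.6, 27.8 and 34 against 138, 143 and 156 CPM) were the higher ones in LNCaP. The GAGE family was listed by GAGE1 alone, which was not tested. Outside the list, 9 GAGE genes had 3 reads or fewer in each 22Rv1 library and at least 10 CPM in each LNCaP library, as given below. MAGEA3 and MAGEA6, which are nearly identical, did not pass.

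Cell surface proteins that serve as therapeutic or imaging targets were mostly lower in 22Rv1, with 10 of 14 tested lower, 3 higher and 1 not passing (median -1.13). FOLH1, which encodes prostate-specific membrane antigen, had 82, 159 and 168 CPM in 22Rv1 and 463, 639 and 595 CPM in LNCaP (log2 fold change -2.04, SE 0.23, adjusted p = 8.57e-06). PSCA was at least 9.75-fold lower, PVRL4 (nectin-4) at least 4.81-fold lower, and LY6E had 24, 11.4 and 8.88 against 139.9, 124 and 139 CPM (log2 fold change -3.32, SE 0.28, adjusted p = 4.65e-07). The receptor gene ERBB2 had 48, 45.8 and 32.6 against 155, 167 and 151 CPM (log2 fold change -1.92, SE 0.19, adjusted p = 1.72e-06), while EGFR was slightly higher in 22Rv1 (112, 130.4 and 118 against 83.1, 69.6 and 88.4 CPM, log2 fold change 0.58, SE 0.17, adjusted p = 0.0106). F3, the coagulation tissue factor, had 11, 76 and 109 reads against 2, 0 and 0, at least 23-fold higher (adjusted p = 7.67e-06).

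Markers of other cell states were also compared. The 4 tested neuroendocrine genes of 9 listed were all higher in 22Rv1. Their median was 5.10, or 2.82 with genes read in one line only at their bound. CHGB (2, 16 and 41 reads against 0 in each LNCaP library) and SCG3 passed the filter on mean CPM only through 22Rv1. The filter thus set their direction. Among the untested genes, NCAM1 had 0 reads in each 22Rv1 library and 4, 1 and 2 in LNCaP, while CHGA had 4, 8 and 18 against 0. The 9 summed to 150.1 to 186 CPM in 22Rv1 and 47.4 to 56.2 CPM in LNCaP. The secretory granule gene SCG3 had 34, 121 and 155 reads against 2, 0 and 0 (at least 39.4-fold higher), and the synaptic vesicle gene SYP had 58.6, 46.1 and 38.8 against 7.26, 4.05 and 7.01 CPM (log2 fold change 2.96, SE 0.27, adjusted p = 9.71e-07). The defining factor INSM1 had 0 reads in all 6 libraries. Of 10 mesenchymal markers 6 were tested, 3 were higher and 3 lower, and the 10 summed to 93.1 to 124 CPM against 221 to 313 CPM. Of the 7 basal markers LAMB3 alone was tested, and it did not pass (21, 14 and 17 against 5, 19 and 12 reads). CDH2 (N-cadherin) was at least 23.6-fold higher and TWIST1 3.26-fold higher in 22Rv1, and FN1 (fibronectin) was lower (12.9, 16.7 and 23.5 against 168, 243 and 203 CPM, log2 fold change -3.47, SE 0.23, adjusted p = 5.07e-08), as were COL1A1 (-1.30) and VIM (-0.61). Of 9 luminal markers 1 was higher, 4 were lower and 4 did not pass, beside 23.7% higher and 22.2% lower of all genes. KRT19 was the higher one (105, 114 and 95.7 against 7.8, 2.02 and 2.1 CPM, log2 fold change 4.78, SE 0.36, adjusted p = 1.38e-07, or 5.65 on the log2 scale without LNCaP replicate 1) and CDH1 (E-cadherin) was among the lower (-1.06).

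The largest differences over all genes in the 3′ UTR table were close to presence against absence in that region. With a mean of at least 50 CPM in the higher line, the greatest falls were in H2AFJ, SPON2, RAB25, PIK3CD, ACKR3 and 7 genes of the GAGE family. H2AFJ, a replication-independent H2A variant on chromosome 12 (hg19, chr12:14927795-14931236), had 0 reads in each 22Rv1 library and 1618, 1854 and 1470 in LNCaP, at least 364-fold lower. SPON2, a secreted matrix protein, had 0.586, 1.67 and 1.16 CPM in 22Rv1 and 1624, 1502 and 1473 CPM in LNCaP (log2 fold change -10.24, SE 0.25, adjusted p = 9.51e-12). The epithelial trafficking GTPase RAB25 (1, 0 and 0 against 514, 745 and 543 reads) was at least 131-fold lower and the chemokine scavenger ACKR3 (0, 2 and 0 against 345, 453 and 432) at least 90.1-fold lower. The GAGE genes on chromosome X are near-identical copies. GAGE2C, GAGE12I and GAGE2D had almost the same counts in LNCaP (675, 1220 and 767, 675, 1219 and 767 and 669, 1217 and 770), so their reads could not be assigned to single copies.

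The greatest rises included PLA2G3, CSRP2, SPINK1, C5, SLC43A3, CFC1B, ALB, TSPAN8, S100A6, ID4 and CFC1. TSPAN8, SPINK1, ALB and C5 are known for their roles in gut, pancreas or liver. TSPAN8, a tetraspanin of gastrointestinal epithelium, had 537, 658 and 734 CPM in 22Rv1 and 4.57, 1.42 and 0.468 CPM in LNCaP (log2 fold change 8.28, SE 0.39, adjusted p = 2.86e-09), or a log2 fold change of 9.32 without LNCaP replicate 1. SPINK1, a secreted trypsin inhibitor of the pancreas, had 393, 306 and 381 against 2.42, 0 and 0 CPM (log2 fold change 8.93, SE 0.50, adjusted p = 1.06e-08), and ALB, serum albumin, 215, 333 and 284 against 2.69, 0 and 0 CPM (log2 fold change 8.42, SE 0.53, adjusted p = 2.88e-08). C5, PLA2G3, CSRP2, SLC43A3 and ID4 had 3 reads or fewer in each LNCaP library. The complement gene C5 was at least 73.3-fold higher, the secreted phospholipase PLA2G3 at least 83.5-fold and the LIM domain protein CSRP2 at least 82.7-fold. The transporter SLC43A3 was at least 109-fold higher, and ID4, an inhibitor of helix-loop-helix factors, at least 114-fold. S100A6 had a log2 fold change of 8.26. CFC1 and CFC1B, at 8.24 and 8.48, are near-identical copies. For ALB, SPINK1, CFC1, CFC1B and S100A6 the LNCaP reads were all in replicate 1. Without it they were at least 424, 550.4, 340.0, 316 and 197-fold higher in 22Rv1, in that order, and without LNCaP replicate 2 their log2 fold changes were 7.56 (CFC1) to 8.26 (SPINK1).

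A rule without a test was applied to the 19540 genes of the 3′ UTR table, less those linked to Y. By it, 105 genes had 3 reads or fewer in each LNCaP library and at least 10 CPM in each 22Rv1 library. The converse held for 56. Because 3 reads stand for a higher CPM in a shallow library, 105 and 56 are not set against each other. GATA3, with 4, 0 and 0 reads in LNCaP, fell outside the 105. Of the 56, 9 were GAGE genes, and the highest were H2AFJ, RAB25, GAGE12F, GAGE2A, GAGE12G, GAGE12H, ACKR3 and GAGE12C. The highest of the 105 included ID4, SLC43A3, HGF, FABP5, SERPINB1, PDK4 and PLA2G3. HGF, the ligand of the MET receptor, had 84, 259 and 386 reads in 22Rv1 and 3, 0 and 0 in LNCaP (at least 92.4-fold higher), and MET itself 5, 13 and 42 against 1, 0 and 1 (at least 6.92-fold), so ligand and receptor were both read in 22Rv1. PDK4, a kinase that holds back pyruvate dehydrogenase, was at least 87.3-fold higher, the fatty acid carrier FABP5 at least 91.8-fold and the protease inhibitor SERPINB1 at least 89.3-fold.

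Levels also differed by chromosome, as a description over tested 3′ UTR genes that share libraries and so are not independent. Chromosome 12 had the highest median log2 fold change, 0.51 over 603 genes, of which 76.1% were above 0, 273 were called higher and 53 lower. Chromosome 7 followed at 0.47 (544 genes, 231 higher and 64 lower) and chromosome 13 at 0.31. The lowest medians were those of chromosomes 21 (-0.33, 112 genes, 15 higher and 40 lower), 20 (-0.23) and 15 (-0.19). The intron table, which holds other reads of the same libraries, gave medians of 0.30 for chromosome 12 and 0.31 for chromosome 7, and -0.19 for chromosome 21. Leaving out each library gave medians of chromosome 12 between 0.47 and 0.56 and chromosome 7 between 0.43 and 0.46. With summed library sizes every chromosome moved up, to 0.68 for chromosome 12 and -0.17 for chromosome 21. DNA copy number was not measured in these data.

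**Figure D3:**
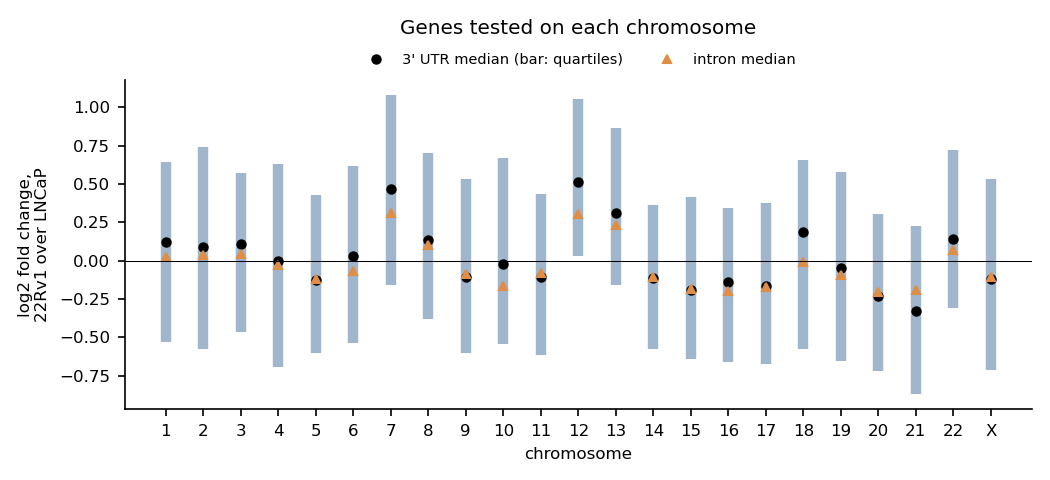
Median log2 fold change of 22Rv1 over LNCaP for the tested genes of each autosome and chromosome X (black points, 3′ UTR table, with bars from the lower to the upper quartile; orange triangles, intron table). Chromosomes 12 and 7 lie highest in both tables, and chromosome 21 has the lowest 3′ UTR median.

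To assess whether the lines use poly(A) regions differently as a whole, region shares of each library were compared. The 3′ UTR held 55.1% ± 4.45 of reads in 22Rv1 and 53.9% ± 2.89 in LNCaP (SD, n = 3 each), introns 24.2% ± 2.62 and 26.9% ± 2.22, CDS 16% ± 1.84 and 14.3% ± 1.16, and the 10 kb regions 4.66% ± 0.246 and 4.88% ± 0.0930. The lines overlapped in all 4, and the two-sided exact permutation p was 0.6 for the 3′ UTR and 0.3 for each of the others, and the adjusted p over the 4 was 0.6 and 0.4. With 3 against 3 libraries the smallest p is 0.1, so no share could pass the 0.05 threshold. The direction of the 10 kb difference rested on the measure. The median share per gene over 10452 well-read genes was 1.5% ± 0.0715 in 22Rv1 and 1.27% ± 0.0815 in LNCaP, without overlap (exact permutation p = 0.1, adjusted p = 0.4), the reverse of the share of all reads.

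Levels in the other regions were compared in the same way, on fewer reads. In introns, 1882 of 11946 genes (15.8%) were higher in 22Rv1 and 2101 (17.6%) lower. In CDS, 733 of 4948 (14.8%) were higher and 781 (15.8%) lower. The 10 kb table, with the fewest reads, had 975 of 13282 (7.34%) higher and 724 (5.45%) lower, and summed library sizes made these 1200 and 548 (68.6% higher in place of 57.4%), with the median moving from 0.03 to 0.21. Relative to the 3′ UTR of the same gene, 338 genes (3.73%) had a higher and 495 (5.46%) a lower intron ratio in 22Rv1 of 9073 tested. For the 10 kb ratio, 417 (4.47%) were higher and 378 (4.05%) lower of 9324. The CDS ratio was called higher in 11 (0.240%) and lower in 5 (0.109%) of 4592 genes with edgeR, where 374 had an unadjusted p under 0.05, and in 0 with summed library sizes. These fits compare 2 tables at once, so their counts are not set against those of level. The number of ratio calls rested on single libraries. Intron ratios came to 508 higher and 771 lower without 22Rv1 replicate 1, 228 and 322 without 22Rv1 replicate 2, 205 and 353 without 22Rv1 replicate 3, and 208 and 291, 190 and 302, and 172 and 266 without LNCaP replicates 1, 2 and 3. The 10 kb ratios came to 510 and 398, 253 and 271, and 204 and 237 without 22Rv1 replicates 1, 2 and 3, and to 221 and 252, 178 and 197, and 228 and 247 without LNCaP replicates 1, 2 and 3.

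Genes with a higher intron ratio in 22Rv1 were led by ZNF511, WDR92, ALDOA, ASS1, KIAA1467, YBEY, EGLN3 and IL17RE. In EGLN3, an oxygen-sensing prolyl hydroxylase, introns held 69, 83.5 and 65% of intron plus 3′ UTR reads in 22Rv1 and 25.9, 25.1 and 23.4% in LNCaP (log2 ratio change 3.06, SE 0.40, adjusted p = 3.96e-05). YBEY, an endoribonuclease, had 42.3, 60.4 and 50.7% against 8.82, 11.5 and 13.3% (log2 ratio change 3.06, SE 0.42, adjusted p = 7.52e-05). In the glycolytic gene ALDOA the share stayed low, 4.36, 1.09 and 1.72% against 0.303, 0.199 and 0.179%, on 19, 12 and 28 against 7, 7 and 5 intron reads (log2 ratio change 3.24, SE 0.42, adjusted p = 4.03e-05). ASS1, of arginine synthesis, rested on 2, 4 and 8 intron reads in 22Rv1, beside a 3′ UTR that was nearly silent there (14, 22 and 31 reads against 1825, 2024 and 2165). IL17RE passed in only 1 of the 6 fits that left out a library. The tables sum all introns of a gene, so which intron held the reads is not resolved, and the part of A-rich intron sequence was not tested. The intron interval of EGLN3 (hg19, chr14:34395096-34931980) also holds the same-strand gene SPTSSA in the newer Gencode annotation, and that of ZNF511 holds PRAP1. Of the 16 intron intervals named by rule here and next, 9 hold a same-strand gene. Reads of such neighbours outside the coding exons and 3′ UTRs that the authors subtracted cannot be told apart from early ends.

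A lower intron ratio was led by THEM6, EBNA1BP2, DDT, NAALADL2, COQ6, SP100, KIF12 and DOCK9. EBNA1BP2, a factor of ribosome assembly, had the smallest adjusted p of the 16 genes. Introns held 1.08, 2.1 and 1.94% of its reads in 22Rv1 and 36.3, 32.1 and 30.7% in LNCaP (4, 15 and 22 against 206, 280 and 230 intron reads, log2 ratio change -4.62, SE 0.34, adjusted p = 4.77e-08), and no other gene is annotated on that strand of the interval (hg19, chr1:43630113-43736607). COQ6, of coenzyme Q synthesis, had 7.69, 3.0 and 3.23% against 52.8, 30.4 and 39.1% (log2 ratio change -3.91, SE 0.53, adjusted p = 6.40e-05), and the nuclear body gene SP100 had 1.68, 1.86 and 3.07% against 21, 34.1 and 23.3% (log2 ratio change -3.76, SE 0.47, adjusted p = 2.72e-05). NAALADL2 and DOCK9 were read mostly in introns in both lines. NAALADL2 had 780, 868 and 1539 intron reads in 22Rv1 and 5665, 9620 and 7315 in LNCaP, beside 131, 138 and 196 and 60, 71 and 63 in its 3′ UTR (log2 ratio change -4.06, SE 0.34, adjusted p = 4.06e-07). UGT2B17 also had a changed ratio (log2 ratio change 3.41), on at most 24 intron and 8 3′ UTR reads in any 22Rv1 library.

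The largest changes of the 10 kb ratio rested on few reads. The 8 genes that led the rises (DNAJC13, FZR1, TSPAN13, WDR1, DHX8, BLOC1S1, CMC1 and PSMA2) had 1 to 13 reads in the 10 kb region of each 22Rv1 library and 0 in LNCaP, and the 8 that led the falls (PSMC3IP, IFRD2, BMPR1A, SLC26A6, RPS3, RAB28, POGLUT1 and C14orf80) had 2 to 14 in LNCaP and 0 in 22Rv1. No fold is given for them. They passed in 0 to 6 of the 6 fits that left out a library. PSMC3IP, a meiotic recombination factor, had the smallest adjusted p, with 14, 14 and 10 reads in LNCaP and 0 in 22Rv1 beside 3′ UTR reads of 87, 113 and 95 and 57, 189 and 325 (adjusted p = 2.35e-06).

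Better read examples were chosen after their values were seen, by requiring at least 20 reads of the 10 kb region in each library of the higher line. In AP2S1, which encodes a subunit of the clathrin adaptor, the 10 kb region (hg19, chr19:47331094-47341093) held 83.3, 87.1 and 81.5% of 10 kb plus 3′ UTR reads in 22Rv1 and 36.1, 18.3 and 24.1% in LNCaP, on 2530, 3259 and 3278 against 250, 160 and 168 reads (log2 ratio change 3.77, SE 0.43, adjusted p = 2.33e-11). A pseudogene without a symbol is annotated on the same strand of that interval. FAM188A, a deubiquitinase gene, had 75, 72.2 and 78.9% against 13.5, 1.49 and 9.33% (log2 ratio change 5.10, SE 0.66, adjusted p = 1.72e-09, and 4.50 without LNCaP replicate 2), and the ubiquitin-conjugating enzyme gene UBE2D4 72.1, 55.9 and 50% against 5.43, 5.61 and 6.96% (log2 ratio change 4.32, SE 0.51, adjusted p = 7.26e-11). Neither 10 kb interval (hg19, chr10:15809870-15819869 and chr7:43996035-44006034) holds another annotated gene on its strand. PRKACB, a catalytic subunit of protein kinase A, combined a 3′ UTR with 19, 79 and 96 reads in 22Rv1 against 1524, 2093 and 1761 in LNCaP with 28, 58 and 86 against 97, 153 and 118 reads beyond it (log2 ratio change 3.67, SE 0.43, adjusted p = 5.73e-11). Its 10 kb interval holds the same-strand pseudogene NEDD8P1. ENPP5 and METTL6 were the other rises, and the interval of METTL6 holds the same-strand pseudogene HMGN2P7.

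Falls of this kind were seen in TMEM79, ZMYM3, TMSB10, MOAP1, MPV17L2 and MYL5. The product of TMSB10, thymosin beta 10, is an actin-binding peptide. Its 10 kb region (hg19, chr2:85134095-85144094) held 7.78, 5.01 and 5.02% of reads in 22Rv1 and 59.4, 49.7 and 57.6% in LNCaP (log2 ratio change -4.52, SE 0.42, adjusted p = 1.43e-15), where the 3′ UTR had 5675, 16142 and 24337 reads in 22Rv1 and 1308, 1683 and 1297 in LNCaP while the 10 kb region had 479, 852 and 1286 against 1917, 1662 and 1764. The same-strand pseudogene RPS2P17 lies in that interval, and a non-coding gene in that of MPV17L2. Reads of such neighbours and of transcripts that run on cannot be told apart. TMEM79, a membrane protein of epidermal barrier formation, had 0, 2.94 and 1.19% against 57.7, 51.3 and 54.2% (log2 ratio change -6.62, SE 0.97, adjusted p = 9.85e-08), with log2 ratio changes of -6.01 and -7.40 without 22Rv1 replicates 1 and 2. MYL5, a myosin light chain gene, had 0, 8 and 8 against 313, 351 and 261 reads in the 10 kb region (0, 5.03 and 3.46% against 38.5, 36.4 and 31.3%).

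**Figure D4:**
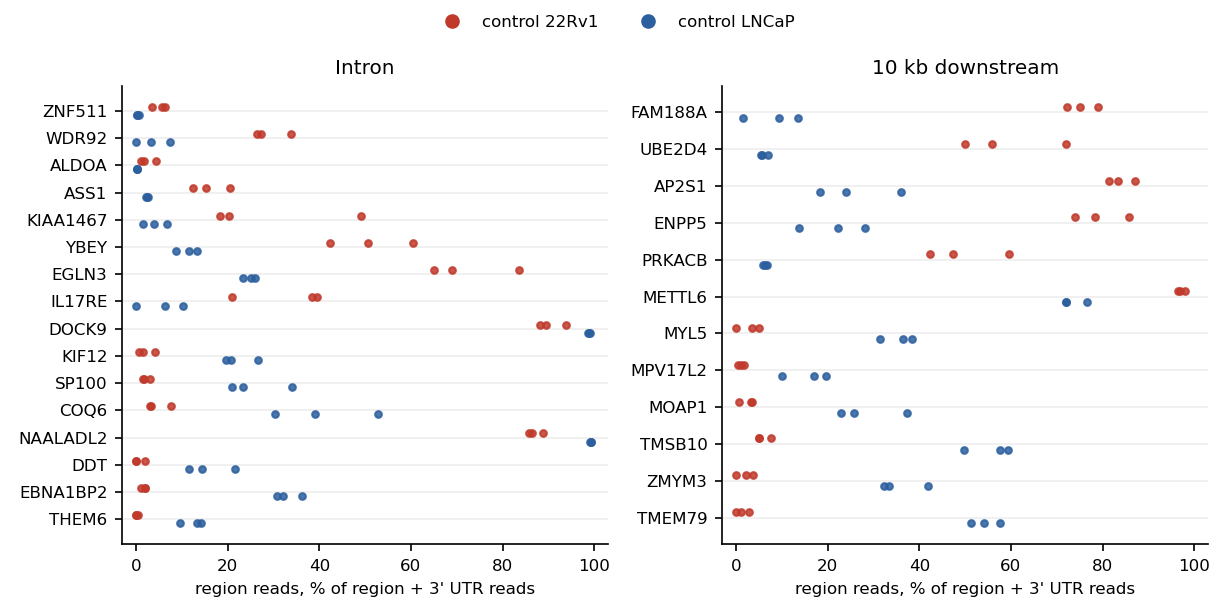
Percentage of reads in the introns (left, 16 genes named by rule) or in the 10 kb beyond the gene (right, 12 genes with at least 20 reads there in each library of the higher line), out of the reads in that region plus the 3′ UTR, with 1 point per control library (red, 22Rv1; blue, LNCaP; n = 3 each). The lines do not overlap in any of the 28 genes, which is a condition of their choice.

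Glycolytic genes and ALDH3A2, which the study follows, also had changes of region. PGK1 had a higher 10 kb ratio in 22Rv1 (2.57, 1.03 and 2.06% against 0.199, 0.382 and 0.230%, log2 ratio change 2.59, SE 0.45, adjusted p = 8.24e-06), as did PFKM (61.5, 39.8 and 41.6% against 28.6, 19.3 and 18.9%, log2 ratio change 1.49, SE 0.43, adjusted p = 0.0164), which passed in 2 of the 6 fits that left out a library and whose 10 kb interval holds a same-strand non-coding gene. ALDOA passed in 1 of them (log2 ratio change 1.46, adjusted p = 0.0409), and its 10 kb interval reaches PPP4C on the same strand. In ALDH3A2 the ratio was lower (12, 8.71 and 9.04% against 17.7, 22.7 and 22.9%, log2 ratio change -1.47, SE 0.40, adjusted p = 0.00977). The 10 kb ratios of GPI and CPSF1 did not pass (adjusted p = 0.334 and 0.0644). With summed library sizes only PGK1 of these genes kept its call (adjusted p = 6.02e-04). In level, the 10 kb regions of PFKM and PGK1 were higher in 22Rv1 (log2 fold changes of 1.46 and 1.08), and those of GPI, ALDOA and CPSF1 did not pass (adjusted p = 0.778, 0.861 and 0.0608). The introns of GPI and PGK1 were lower (-0.99 and -0.77), as their 3′ UTRs were, those of ALDOA were higher (2.03), and those of PFKM and CPSF1 did not pass. In CDS, GPI and PFKM did not pass, and ALDOA, PGK1 and CPSF1 had at most 2 reads in any library.

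The kallikrein cluster gave an example of regions that moved apart. KLK3 was lower in 22Rv1 in all 4 tables, with log2 fold changes of -4.25 in introns and -2.57 in the 10 kb region, which reaches KLK2 on the same strand, and at least a 32-fold difference in CDS (0, 2 and 2 reads against 138, 115 and 148). Without 22Rv1 replicate 3 the 10 kb region of KLK3 was at least 8.05-fold lower. KLK4, a protease whose 3′ UTR did not pass, was lower in its introns (94, 107 and 157 reads against 312, 315 and 301, log2 fold change -0.95, SE 0.16, adjusted p = 1.99e-05) and beyond its end (105, 141 and 235 reads against 465, 587 and 446, log2 fold change -1.45, SE 0.23, adjusted p = 1.72e-08). The 10 kb interval of KLK4 holds the same-strand pseudogene KLKP1. The ratios of KLK4 passed in 3 and 5 of the 6 fits that left out a library, and neither passed with summed library sizes (adjusted p = 0.098 and 0.0639).

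Few genes had a changed CDS ratio. In GALNT7, a mucin-type glycosyltransferase, CDS held 2.23, 1.93 and 3.21% of CDS plus 3′ UTR reads in 22Rv1 and 22.9, 20.4 and 37.4% in LNCaP (log2 ratio change -3.71, SE 0.43, adjusted p = 0.00115), and in MRPS10, a mitochondrial ribosomal protein, 11.1, 15.4 and 18.5% against 60.7, 53.7 and 61% (log2 ratio change -2.91, SE 0.37, adjusted p = 0.00217). The histone genes HIST2H2AA3 and HIST1H1C went the other way, with 76.9, 57.8 and 61.7% against 18.6, 20 and 18.9% and 97.1, 89.4 and 88% against 74.6, 61.8 and 69.9%. Replication-dependent histone mRNAs normally carry no poly(A) tail, and whether these reads come from polyadenylated forms or from A-rich sequence was not tested. These 4 genes were chosen after their values were seen, and none kept its call with summed library sizes (adjusted p = 0.0767, 0.0767, 0.0767 and 0.487).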

How the data were processed

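PAC-seq libraries of 3 control 22Rv1 and 3 control LNCaP cultures were used out of 27. Per the labels and methods, the authors trimmed poly(A) tails with the DPAC pipeline, aligned reads to hg19 (GRCh37) with HISAT2 (2.1.0) and counted them with Subread (2.0.3; versions from the submitters' processing notes) on the sense strand, by the 3′-most base, in Ensembl regions. The deposited files hold raw, unnormalized counts per gene in 4 tables (19540 genes for 3′ UTRs extended by 300 bases, 20216 for introns, 20268 for CDS and 20266 for 10 kb beyond the gene, less same-strand exons). Coding exons and 3′ UTRs, but not 5′ UTR exons, had been removed from introns. Columns other than counts hold positions and lengths, and 0 columns of per-sample values were left unmapped. Blocks of A in the genome can prime a read, and no molecular identifiers were used, so floors of 3 reads per library cover counting error only.

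Each table was fitted by edgeR (4.0.16, R 4.3.3, with limma 3.58.1) with TMM factors of that table, the quasi-likelihood test and Benjamini-Hochberg adjustment at 0.05, over genes with a mean above 2 CPM in the 6 libraries. Changes of region came from 1 edgeR model per region of library, region and region by line. Standard errors are log2 fold changes divided by the square root of the F statistic. Shares of reads were compared by exact permutation over the 20 ways to split 6 libraries, with scipy (1.17.1) in Python (3.11.15). DESeq2 (1.42.0) was an alternative, as were other scalings, filters, samples in the fit, the replicate number as a block, and leaving out each library. The tests were checked on simulated counts. Gencode gene positions of the same build, newer than the authors' annotation, gave neighbours. RefSeq promoters (GRCh38.p14) were matched by symbol.

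Genes were named by rule: up to 3 called per list and direction at a mean of 5 CPM or more in the higher line, genes followed by the study in every table, the 12 largest rises and falls in 3′ UTRs (mean of 50 CPM or more in the higher line, no overlap), the 8 largest rises and falls of the intron and 10 kb ratios (10 CPM or more in the region in the higher line, 5 CPM or more in both 3′ UTRs, no overlap), and the 8 highest genes read in 1 line. Others are named as further members of a list or as chosen after their values were seen. The comparison and the gene lists were chosen with earlier results of these data known. Y-linked genes and some other items are not reported here.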

Additional observations from a re-analysis of the deposited data

How the results depend on the processing

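Among the 213 genes described in the 3′ UTR table, 2798 of 2911 values under the alternatives kept direction and side of the threshold, 74 no longer passed, 39 newly passed and 0 reversed. Among 79 region ratios, 573 of 675 kept both, 99 no longer passed, 3 newly passed and 0 reversed. Requiring more than 2 CPM in every library left values for only 142 of the 213 genes. Of the 79 ratios, 42 kept both under that filter and 1 newly passed. Genes and ratios without a value there are not in these totals for that setting. Counts of genes depended more on the setting, and the cause was not tested. DESeq2 called 610 genes as higher in the 10 kb table. With summed library sizes, 134 genes had a higher and 285 a lower intron ratio, 0 a higher and 0 a lower CDS ratio, and 246 a lower 10 kb ratio. Requiring more than 2 CPM in every library tests fewer genes and left 204 and 249 intron ratios, 5 higher CDS ratios and 210 lower 10 kb ratios. As a median share per gene, the CDS difference was -0.132 and the 10 kb difference 0.239 percentage points, and without the 100 genes with the most reads the 10 kb difference was 0.215, all opposite in sign to the shares of all reads.

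Leaving out each library gave 2166 to 3264 higher and 2026 to 3118 lower 3′ UTRs, 1538 to 2017 and 1689 to 2130 introns, 591 to 755 and 567 to 743 CDS, and 648 to 1079 and 545 to 758 10 kb regions. It gave 172 to 508 higher and 266 to 771 lower intron ratios, 7 to 12 and 4 to 7 CDS ratios, and 178 to 510 and 197 to 398 10 kb ratios. The share differences ranged from -0.327 to 3.81 percentage points for 3′ UTRs, -4.13 to -1.40 for introns, 0.677 to 2.50 for CDS and -0.360 to -0.122 for 10 kb regions. The 3′ UTR difference changed sign without 22Rv1 replicate 2 (-0.0998) and without LNCaP replicate 1 (-0.327). The fewest 10 kb calls that were higher came without 22Rv1 replicate 3 (648), and the fewest higher 10 kb ratios without LNCaP replicate 2 (178).

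Whether the replicate numbers pair the libraries was not settled. Same-numbered libraries had correlations of deviations of 0.297, 0.149 and 0.0608, and libraries of unlike number had -0.238 to 0.172. For 22Rv1 replicates 1 and 2 the best match was the LNCaP library of the same number. For 22Rv1 replicate 3 it was LNCaP replicate 2 (0.172). With a replicate block, 2914 and 2800 3′ UTRs, 400 and 580 intron ratios, 13 and 6 CDS ratios and 356 and 307 10 kb ratios were called. Depth limits what regions of few reads can show. The shallowest library, 22Rv1 replicate 1, held 3452413 reads, and 10 kb regions took 4.66% of reads in 22Rv1.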

Other observations

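Control LNCaP95 libraries, 3 of an androgen-independent derivative of LNCaP kept in phenol red-free medium, were set beside the 6 libraries on a common scale over the 27 libraries of the series, as values without a test. The genes were chosen after their values were seen. KLK3 had 38 ± 8.01 CPM in 22Rv1, 1698 ± 78.2 in LNCaP and 4249 ± 246 in LNCaP95 (SD, n = 3 each). FKBP5, which was higher in 22Rv1 than in LNCaP, had 313 ± 60.4 CPM in 22Rv1, 56.2 ± 5.21 in LNCaP and 279 ± 7.45 in LNCaP95. NR3C1, the glucocorticoid receptor gene, had 13.3 ± 7.16 CPM in 22Rv1, 0.171 ± 0.152 in LNCaP and 7.47 ± 4.33 in LNCaP95. GDF15 had 47.5 ± 17.9 CPM in 22Rv1, 1937 ± 266 in LNCaP and 9865 ± 1249 in LNCaP95, and PIK3CD 0.0701 ± 0.121 CPM in 22Rv1, 88.7 ± 7.22 in LNCaP and 362 ± 49.8 in LNCaP95. UGT2B17 had 0.967 ± 0.869 CPM in 22Rv1, 203 ± 40.1 in LNCaP and 91.7 ± 19.7 in LNCaP95.

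H2AFJ, with 1470 to 1854 reads in LNCaP, had 0 to 6 in LNCaP95 and 0 in 22Rv1. SPON2 had 1.24 ± 0.594 CPM in 22Rv1, 1665 ± 86.7 in LNCaP and 1433 ± 127 in LNCaP95. GATA3 had 0 reads in LNCaP95, TSPAN8 at most 3 and SPINK1 at most 2.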
